A study of Mus musculus with 4 samples.

Results

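The 10 genes described here mark T cells and their regulatory states in lung RNA: Cd3d, Cd3e, Cd3g, Cd4, Cd8a, Foxp3, Ctla4, Icos, Cd28 and Gata3. They were taken by symbol from both deposited expression tables, where each had 1 row, and they are 10 of 23284 genes. Whole lungs of C57BL/6 mice were sequenced as 4 libraries, 1 per group. The first pair was a mouse line without interleukin-22 (genotype IL22-/-) and the wild type, both given repeated doses of the allergen house dust mite (HDM) to sensitize and then challenge them, with lungs taken 48 h after the last dose. The second pair was wild-type mice given recombinant IL-22 or phosphate-buffered saline (PBS) into the trachea, with lungs taken 24 h later. The labels do not say how many mice went into a library, so no value below has a replicate, and no p-value is given. The labels name neither the doses nor how the Il22 allele was made.

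T cells recognise antigen through a receptor that cannot signal by itself and relies on the CD3 chains beside it. The coreceptors CD4 and CD8 divide helper from cytotoxic T cells. Full activation also needs a second signal from CD28, and the related receptors ICOS and CTLA-4 come up on activated and regulatory T cells, where CTLA-4 competes with CD28 for the ligands CD80 and CD86. FOXP3 is the transcription factor that defines regulatory T cells, which restrain allergic inflammation, and GATA3 directs the type 2 helper cells and type 2 innate lymphoid cells (ILC2) that produce the cytokines of allergic airway disease.

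The genes lie in 2 clusters and 4 single loci of mm10 (positions from GENCODE M21 on the same assembly, GRCm38), and all 10 are annotated as protein coding. Cd3g (chromosome 9, 44969572 to 44980431, minus strand) and Cd3d (44981786 to 44987339, plus strand) are transcribed away from each other from starts 1355 bases apart, and Cd3e (44998740 to 45009627, minus strand) lies beside them within 40.1 kilobases. Cd28 (chromosome 1, 60716800 to 60773359), Ctla4 (60887000 to 60915832) and Icos (60977927 to 61000320) follow one another on the plus strand within 284 kilobases. Foxp3 is on chromosome X (7573644 to 7595245), Gata3 on chromosome 2 (9857078 to 9890034), Cd8a on chromosome 6 (71373427 to 71379173) and Cd4 on the same chromosome (124864692 to 124888221).

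Promoters of the Cd3 genes are shown because the 3 subunits had similar ratios in each pair of libraries, and that of Ctla4 because it had the largest ratio in size of the 10 genes in both pairs. The lines give the 250 bases before the RefSeq start (GRCm38.p6), 5′ to 3′ on the strand of the gene, at chr9:44980432-44980681 (minus), chr9:44981536-44981785 (plus), chr9:45009612-45009861 (minus) and chr1:60908775-60909024 (plus). Capitals mark matches, on either strand, to short core motifs of transcription factor families active in T cells, which are spelled out after the sequences and do not overlap in these windows.
Cd3g: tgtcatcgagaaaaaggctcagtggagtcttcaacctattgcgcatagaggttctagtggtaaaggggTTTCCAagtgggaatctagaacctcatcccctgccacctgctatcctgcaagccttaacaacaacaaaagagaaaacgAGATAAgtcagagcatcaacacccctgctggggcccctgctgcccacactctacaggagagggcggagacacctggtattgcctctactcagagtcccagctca
Cd3d: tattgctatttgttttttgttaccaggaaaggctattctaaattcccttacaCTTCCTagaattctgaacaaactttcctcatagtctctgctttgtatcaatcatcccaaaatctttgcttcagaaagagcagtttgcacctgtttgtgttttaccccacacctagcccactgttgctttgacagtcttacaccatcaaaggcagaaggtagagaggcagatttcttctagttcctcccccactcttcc
Cd3e: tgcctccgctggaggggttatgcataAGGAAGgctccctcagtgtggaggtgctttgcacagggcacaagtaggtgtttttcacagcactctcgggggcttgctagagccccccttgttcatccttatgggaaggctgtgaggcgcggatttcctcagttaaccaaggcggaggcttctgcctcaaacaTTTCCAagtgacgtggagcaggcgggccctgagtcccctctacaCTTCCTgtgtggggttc
Ctla4: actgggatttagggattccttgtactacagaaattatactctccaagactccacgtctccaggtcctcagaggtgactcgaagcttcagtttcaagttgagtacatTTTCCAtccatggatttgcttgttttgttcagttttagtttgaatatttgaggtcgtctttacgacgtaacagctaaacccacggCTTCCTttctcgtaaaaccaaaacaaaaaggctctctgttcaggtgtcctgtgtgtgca
The ETS core, searched as AGGAAG, was found in the windows of Cd3d, Cd3e (at 2 places) and Ctla4, and in 29.5% of 32851 mouse promoter windows of this length. The NFAT core, searched as TGGAAA, was found in those of Cd3g, Cd3e and Ctla4, against 18.6% of all windows. The GATA core, searched as AGATAA, was found in that of Cd3g alone among these 4, against 9.99% of all windows. The RUNX core, searched as TGTGGT, was in none of the 4 windows and in 14.05% of all windows. The TATA box, searched as TATAAA, was also in none of them, against 12.4% of all windows. A match describes the letters and does not show binding.

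Expression is given as FPKM, fragments per kilobase of transcript per 1 M fragments (M for 1000000), a level that can be compared between genes of a library. Reads behind each value were estimated from the whole-read steps of low values, which gave 27.3 M, 24.97 M, 28.9 M and 19.99 M reads for the knockout HDM, wild-type HDM, IL-22 and PBS libraries. Ratios have exact 95% binomial intervals on these reads, which cover counting error only. They compare libraries, not genotypes or treatments. Differences are of log2(FPKM + 1). A call, in either direction, needs a difference of 1 or more in size and a pair mean of 1 FPKM or more. A gene under 1 FPKM in 1 library can pass this filter through the other library alone. Of the 10 genes 8 passed this filter on low values in the HDM pair, with Cd8a and Foxp3 under it, and 6 did in the IL-22 pair, with Foxp3, Ctla4, Icos and Cd28 under it. The lung label was checked on 10 marker genes of lung cells: the surfactant gene Sftpc stood at 37820 FPKM in the knockout and 30749 in the wild type after HDM, and none of the 10 was at 0 in any library.

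Nearly all of the T cell genes had lower levels in the knockout than in the wild-type lung after HDM, and Ctla4 stood out, at 0.613 FPKM in the knockout and 3.95 FPKM in the wild type. Ctla4 alone was called, 1 of 8 measured genes, where 2.42% of 13285 measured genes were called lower and 0.549% higher. At a size rule of 1.5-fold 4 were lower (Ctla4, Cd3e, Cd4 and Icos), where 6.41% of all measured genes were. The 8 measured genes had a median difference of -0.63, and 7 of them lay below 0, against a median of 0.03 and 46.1% below 0 over all measured genes. Among these 8, Ctla4, Icos and Cd28 were under 1 FPKM in the knockout and passed the filter through the wild-type library alone. With no filter the median difference of all 10 genes was -0.54. Over all 10 genes the ratio of knockout to wild type had a median of 0.571 and ran between 0.155 and 1.18, and Gata3 was the only gene above 1. For 8 genes the counting interval lay below 1, for 1 it lay above, and for Cd8a it held 1. The intervals of 27.2% of all measured genes lay below 1 and those of 32.2% above. In bulk lung RNA, fewer T cells and less of these RNAs per cell cannot be told apart.

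**Figure D1:**
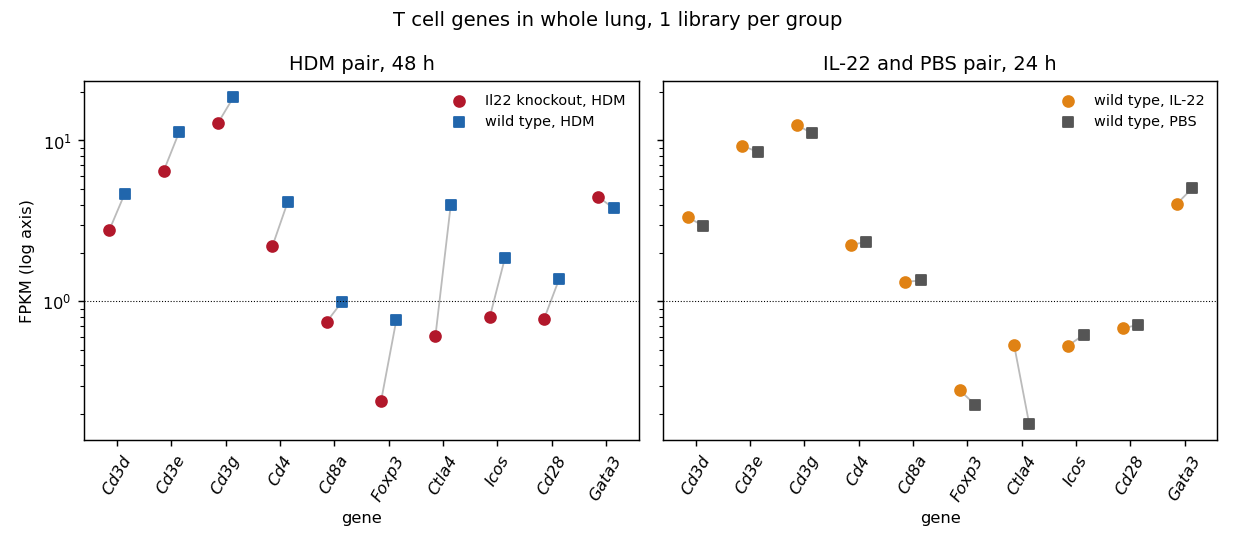
FPKM (log axis) of the 10 genes in each library, with the pair of libraries from HDM-treated mice on the left and the IL-22 and PBS pair on the right, and 1 point per library. The dotted line marks 1 FPKM. After HDM every gene but Gata3 is lower in the knockout, with the widest gap for Ctla4 (0.613 against 3.95 FPKM), while most points of the other pair lie close together.

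The CD3 subunits carry the signal of the T cell receptor into the cell and are the most general markers of T cells among these genes. Cd3g, the gamma chain gene and the highest of the 10 in every library, stood at 12.9 FPKM in the knockout, against 18.5 in the wild type (290 against 381 reads), a ratio of 0.696 (0.595 to 0.813). Cd3e, the epsilon chain gene, was at 6.49 against 11.2 FPKM, a ratio of 0.579 (0.489 to 0.688). Cd3d, the delta chain gene, was at 2.79 against 4.67 FPKM, a ratio of 0.598 (0.465 to 0.768). All 3 ratios lay below 1 and their intervals overlapped. The mean level of the 3 subunits was 7.39 FPKM in the knockout and 11.5 in the wild type, which is 1.55-fold lower. Their differences, of -0.49 to -0.71, lay short of the size rule of 1.

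The coreceptor genes differed in how far apart the libraries stood. Cd4, the coreceptor of helper and regulatory T cells, which some mouse dendritic cells also express, stood at 2.21 FPKM in the knockout, against 4.14 in the wild type, a ratio of 0.533 (0.439 to 0.643) on 175 and 301 reads. Cd8a, the alpha chain of the coreceptor of cytotoxic T cells, which a subset of dendritic cells shares, was at 0.749 against 0.996 FPKM, a ratio of 0.752 (0.522 to 1.09) on 57 and 69 reads, and a difference was not detectable at this depth. Its partner chain gene Cd8b1 stood at 4.16 FPKM in the knockout, against 4.08 in the wild type, a ratio of 1.02 (0.800 to 1.30). Cd4 over Cd8a was therefore 2.95 in the knockout and 4.16 in the wild type, both above the 1.70 of the IL-22 library and the 1.74 of the PBS library. The intervals of the Cd4 and Cd8a ratios overlapped.

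Receptors of the CD28 family were lower in level in the knockout, by unequal amounts. Ctla4, the inhibitory receptor, was at 0.613 FPKM (29 reads) in the knockout and 3.95 FPKM (171 reads) in the wild type, a ratio of 0.155 (0.101 to 0.231). That is 6.45-fold lower, with a difference of -1.62, and 0.798% of the measured genes had a more negative one. Icos, the inducible costimulator, was at 0.802 against 1.87 FPKM (67 and 142 reads), a ratio of 0.428 (0.318 to 0.581), and its difference of -0.67 missed the size rule. Cd28, the costimulatory receptor of resting T cells, was at 0.781 against 1.39 FPKM (88 and 144 reads), a ratio of 0.563 (0.424 to 0.734). The interval of Ctla4 did not overlap that of any other of the 10 genes but Foxp3. Relative to Cd28 in the same library, the level of Ctla4 was 0.785 in the knockout and 2.85 in the wild type, while that of Icos was 1.03 and 1.35.

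Of the 2 transcription factor genes, Foxp3 was lower in level in the knockout and Gata3 slightly higher. Foxp3 stood at 0.242 FPKM in the knockout, against 0.767 in the wild type, 24 against 68 reads, a ratio of 0.315 (0.194 to 0.521). This gene was under the filter on low values, and its difference of -0.51 on the log2(FPKM + 1) scale understates the ratio. Exons of Foxp3 overlap those of Ccdc22 and Ppp1r3f on the opposite strand. Whether reads were counted by strand is not given in the sources used here. Ccdc22 stood at 7.06 against 6.54 FPKM and Ppp1r3f at 0.970 against 0.946, so both differed between the libraries by under 0.10 on the log2(FPKM + 1) scale. Gata3 stood at 4.46 FPKM in the knockout, against 3.78 in the wild type (367 against 285 reads), a ratio of 1.18 (1.01 to 1.38) and a difference of 0.19. Gata3 over Foxp3 was 18.4 in the knockout, against 4.92 in the wild type. This is a ratio of levels in whole lung and not of T cell types. Of the 12 genes listed for type 2 helper cells and ILC2, 5 were measured. All 5 lay below 0 in this pair, where 46.1% of all measured genes did. The cells behind the Gata3 RNA were not tested, and these 5 genes do not identify them.

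**Figure D2:**
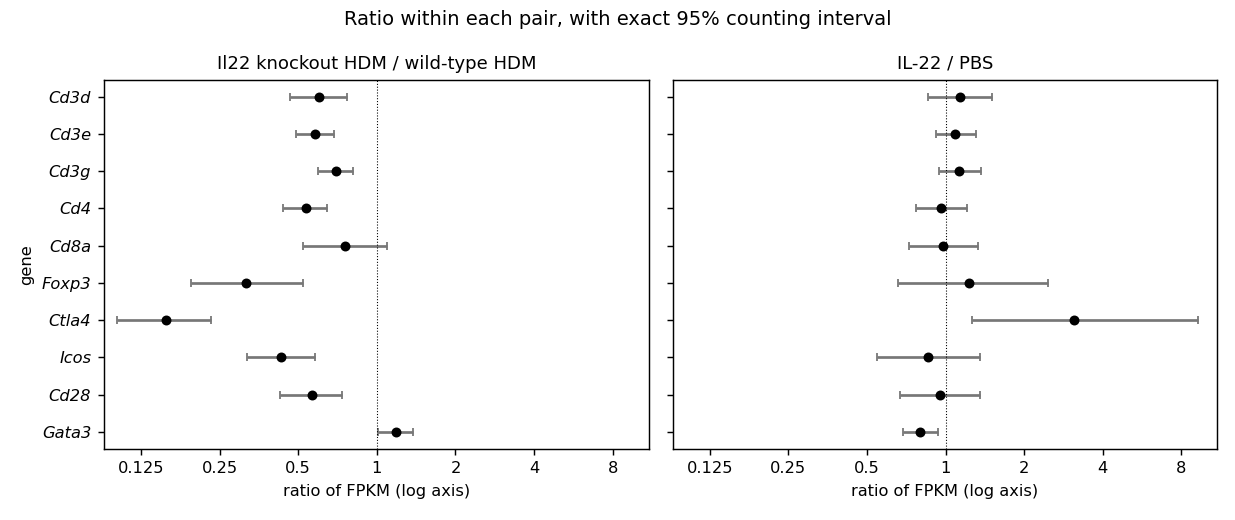
Ratio of FPKM within each pair (log axis), knockout over wild type after HDM on the left and IL-22 over PBS on the right. Points are ratios of 1 library to 1 library and bars are exact 95% counting intervals, which hold no spread between mice. On the left Ctla4 is lowest at 0.155, and on the right it is highest at 3.12.

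Set against the CD3 subunits of the same library, Cd4, Cd28 and Cd8a differed less between the HDM libraries than Ctla4, Foxp3, Icos and Gata3. Cd4, Cd28 and Cd8a were within 1.21-fold of the same level per CD3 in the HDM pair: Cd4 stood at 0.299 of the CD3 mean in the knockout and 0.361 in the wild type, Cd28 at 0.106 and 0.121, and Cd8a at 0.101 and 0.0869. The others were further apart. Ctla4 was at 0.0830 of the CD3 mean in the knockout and 0.345 in the wild type, 4.15-fold lower. Foxp3 was at 0.0328 against 0.0669, 2.04-fold lower, and Icos at 0.109 against 0.163, 1.504-fold lower. Gata3 was at 0.604 against 0.330, a ratio of 1.83. These are ratios of levels in single libraries, with no test. Before division by CD3, the counting intervals of Icos (0.318 to 0.581) and Foxp3 (0.194 to 0.521) overlapped those of Cd4 (0.439 to 0.643) and Cd28 (0.424 to 0.734). Those of Ctla4 and Gata3 did not.

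**Figure D3:**
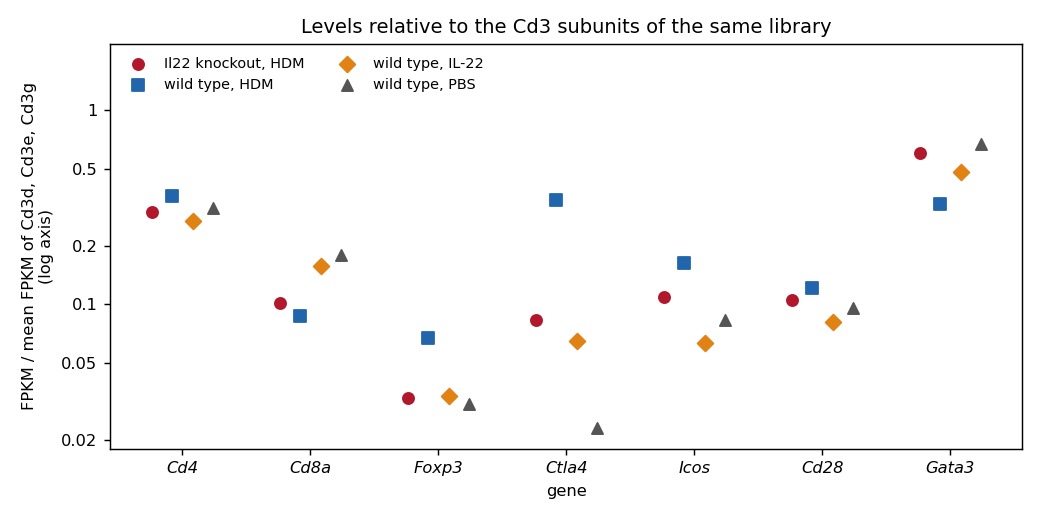
Level of each gene divided by the mean FPKM of Cd3d, Cd3e and Cd3g in the same library (log axis), 1 point per library. The wild-type HDM library is highest for Foxp3 (0.0669), Ctla4 (0.345), Icos (0.163), Cd4 (0.361) and Cd28 (0.121), and lowest for Gata3 (0.330) and Cd8a (0.0869).

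Instillation of IL-22 into lungs without allergen left most of these genes close to their level with PBS, and Ctla4 had the widest gap, on few reads. None of the 6 measured genes was called higher or lower, where 0.597% of 13233 measured genes were called higher and 0.189% lower, and their median difference was 0.05 against 0.04 over all measured genes. Of the 6 genes 3 lay below 0, where 41.4% of all measured genes did. Cd3g was at 12.5 FPKM after IL-22, against 11.1 after PBS, a ratio of 1.13 (0.939 to 1.37). Cd3e was at 9.27 against 8.50, a ratio of 1.09 (0.919 to 1.30), and Cd3d at 3.33 against 2.94, a ratio of 1.13 (0.857 to 1.51). All 3 intervals held 1. They allow a CD3 level up to 1.30-fold to 1.51-fold higher with IL-22, so a modest difference was not detectable at this depth.

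Cd4 was at 2.24 FPKM after IL-22, against 2.35 after PBS (ratio 0.957, 0.768 to 1.21), and Cd8a at 1.32 against 1.35 (ratio 0.979, 0.721 to 1.33). Cd28 was at 0.680 against 0.715 FPKM, a ratio of 0.9505 (0.671 to 1.35), Icos at 0.532 against 0.621, a ratio of 0.856 (0.546 to 1.35), and Foxp3 at 0.281 against 0.229, a ratio of 1.23 (0.659 to 2.47). The intervals of these 5 genes held 1, and that of Foxp3, on 29 and 16 reads, was the widest of them. Ctla4 was at 0.540 FPKM after IL-22, against 0.173 after PBS, which is 27 against 6 reads and a ratio of 3.12 (1.26 to 9.23). Gata3 was at 4.05 against 5.05 FPKM (352 and 304 reads), a ratio of 0.801 (0.686 to 0.938). Intervals above 1 were found in 26.6% of all measured genes of this pair and intervals below 1 in 14.8%.

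Across the 4 libraries the order of levels was alike, with Cd3g first and Cd3e second in each. The tables may have been scaled separately, so the levels of the 2 pairs are set side by side and not tested. Ctla4 changed place most, at 0.613 FPKM in the knockout HDM, 3.95 in the wild-type HDM, 0.540 in the IL-22 and 0.173 in the PBS library. By level it took place 5 of the 10 genes in the wild-type HDM library and places 8 to 10 in the other libraries. Foxp3 was at 0.767 FPKM in the wild-type HDM library and between 0.229 and 0.281 in the other 3, and Icos was at 1.87 against 0.532 to 0.802. Cd28 was likewise at 1.39 in the wild-type HDM library and at 0.680 to 0.781 in the others. Cd4 was at 4.14 against 2.21 to 2.35 FPKM. The knockout HDM library lay between the IL-22 and PBS libraries for Foxp3, above both for Ctla4, Icos and Cd28, and below both for Cd4. Cd8a had a different order, with the 2 HDM libraries (0.749 and 0.996) below those of the other pair (1.32 and 1.35), and Gata3 was highest with PBS (5.05) and lowest in the wild-type HDM library (3.78).

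Genes of the same pathways give the surroundings of these values. Lists named here were drawn up with earlier results of these data known. Other genes of regulatory T cells had a median difference of -0.37 over 11 measured genes in the HDM pair, with 1 called lower and none higher, 9 below 0 and 2 above. The called gene was Tnfrsf9, the costimulatory receptor 4-1BB of activated T cells and other leukocytes, at 1.04 FPKM in the knockout and 19.0 in the wild type (55 against 908 reads), a ratio of 0.0549 (0.0414 to 0.0728). Tnfrsf4 (OX40, another costimulatory receptor) was at 1.46 against 3.65 FPKM and Tnfrsf18 (GITR) at 3.23 against 5.72. Tigit, an inhibitory receptor, was at 0.677 against 1.74 FPKM on 13 and 31 reads. Il2ra, the high-affinity chain of the IL-2 receptor, was at 1.33 against 2.02, a ratio of 0.660 (0.533 to 0.816). The 2 genes above 0, Nt5e (CD73, 27.1 against 21.8 FPKM) and Entpd1 (CD39, 41.4 against 34.1), encode ectoenzymes that break down extracellular nucleotides, and their ratios were 1.24 (1.17 to 1.32) and 1.21 (1.16 to 1.27). Lrrc32, which displays latent TGF-beta on the cell surface, was at 13.2 against 13.5 FPKM, a ratio of 0.971 (0.898 to 1.05). Under the filter, Ikzf2 had 116 reads in the knockout and 119 in the wild type, a ratio of 0.892 (0.684 to 1.16). Ikzf4, also under it, had 67 and 129 reads, a ratio of 0.478 (0.348 to 0.643). Nt5e, Entpd1, Lrrc32, Ikzf2 and Ikzf4 were chosen after their values were seen.

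Further costimulatory and inhibitory receptors had 7 measured genes with a median of -0.49, 1 of them called lower. That gene was Pdcd1, the inhibitory receptor PD-1, at 0.487 FPKM in the knockout and 2.68 in the wild type (23 against 116 reads), a ratio of 0.181 (0.111 to 0.285). Lag3, an inhibitory receptor that binds MHC class II, was at 1.06 against 2.68 FPKM, a ratio of 0.397 (0.281 to 0.553). Ligands of the CD28 family, carried mostly by antigen-presenting cells, had a median of -0.34 over 6 measured genes with none called. Cd86 was at 2.30 against 5.06 FPKM, and Cd80, under the filter, at 0.390 against 0.961. Icosl, the ligand of ICOS, was at 8.15 against 5.87, a ratio of 1.39 (1.22 to 1.59), so it and its receptor lay on opposite sides of 1.

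Genes of T cell receptor signalling and T cell identity lay closer to 0, with a median of -0.17 over 19 measured genes and none called. The surface proteins Cd5 (1.23 against 2.89 FPKM), Cd2 (16.5 against 28.7) and Cd6 (0.993 against 1.88) and the adaptor Lcp2 (3.54 against 6.77) had the largest differences, of -0.53 to -0.80. Cd247, the zeta chain that signals with the CD3 subunits in T cells and with other receptors in NK cells, stood at 5.84 FPKM in the knockout, against 6.95 in the wild type, a ratio of 0.840 (0.733 to 0.966). Its interval did not overlap those of Cd3e and reached into those of Cd3d and Cd3g. Chosen after their values were seen, the kinases Lck (4.92 against 5.65 FPKM) and Zap70 (2.53 against 2.85), also active in NK cells, had ratios of 0.871 (0.731 to 1.04) and 0.889 (0.700 to 1.13), and Tcf7, a transcription factor of naive and memory T cells, was at 11.6 against 8.66, a ratio of 1.34 (1.19 to 1.51).

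Other lineage transcription factors had a median of -0.06 over 9 measured genes, none of them called. Tbx21, which directs type 1 helper cells and NK cells, stood at 0.715 FPKM in the knockout, against 0.731 in the wild type (45 and 42 reads). Stat4, which signals for IL-12, was at 1.93 against 3.48 FPKM. All 5 measured genes of type 2 helper cells and ILC2 lay below 0, where 46.1% of all measured genes did. Their median was -0.64 and none was called, and 7 more genes of this list were under the filter. Among the 5 was Il1rl1, the receptor of IL-33, at 1.54 against 3.30 FPKM. Growth cytokines of T cells and their receptor chains had a median of -0.26 over 7 measured genes with none called, and Tslp, an epithelial alarmin in that list, was at 4.63 against 3.26. Homing receptors had 11 measured genes with a median of -0.41, of which 1 was called lower, and Cxcr6 was at 2.14 against 4.47 FPKM.

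**Figure D4:**
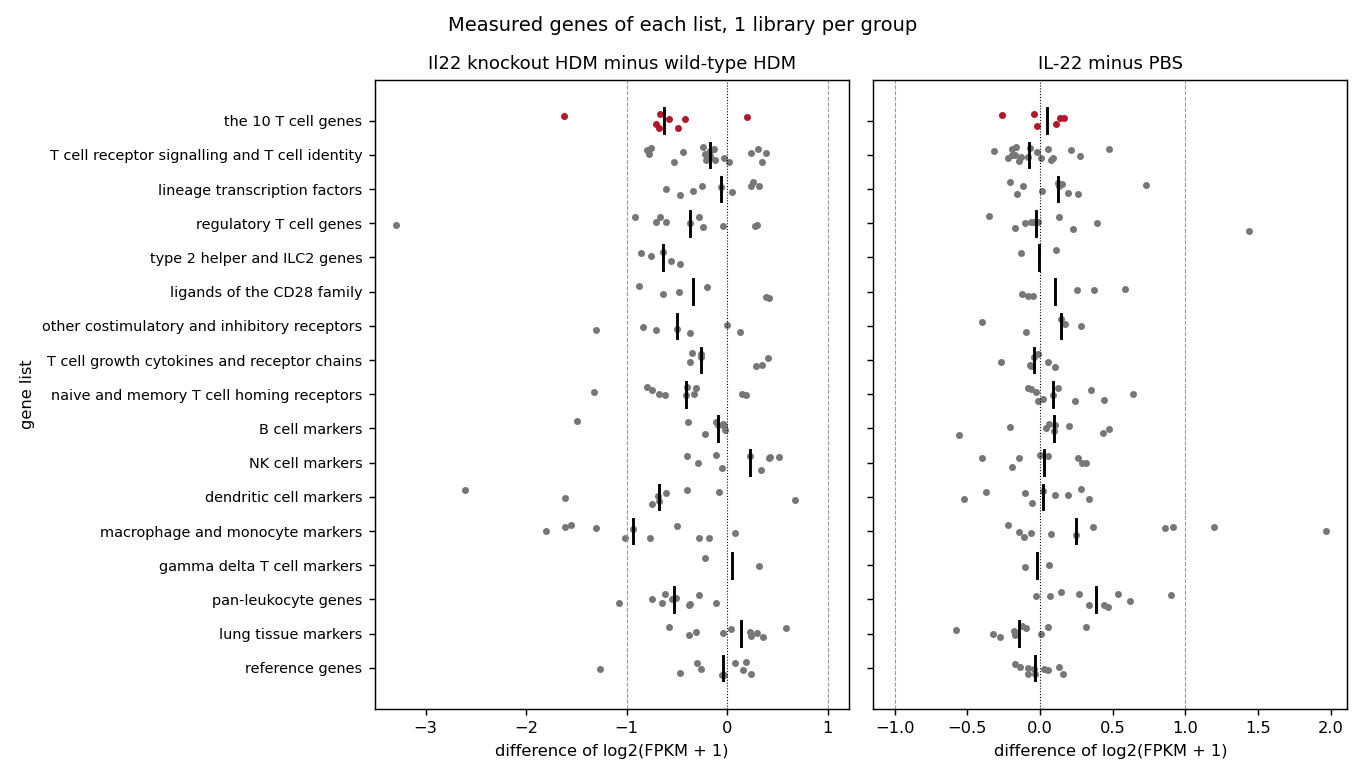
Differences of log2(FPKM + 1) of the measured genes of each list, knockout minus wild type after HDM on the left and IL-22 minus PBS on the right. Each point is a gene, black bars are list medians, dashed lines mark the size rule of 1, and the 10 T cell genes are red. Their median is -0.63 on the left and 0.05 on the right, beside -0.53 and 0.39 for pan-leukocyte genes.

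Markers of other leukocytes also stood lower in level in the knockout in the HDM pair, apart from those of NK cells. The summed level of 10 genes expressed in leukocytes of all kinds was 465 FPKM in the knockout and 795 in the wild type, a ratio of 0.585, beside 0.624 for the sum of the 10 T cell genes. All 10 of these leukocyte genes lay below 0, with a median of -0.53 and 1 called lower (Cd52). Cd52, at 177 against 376 FPKM, was the highest of them in both libraries and weighed most in their sum. The 8 measured T cell genes had a median of -0.63, so by medians the order was the reverse of that of the sums. Over all 10 T cell genes the median was -0.54, close to that of the leukocyte genes. Ptprc (CD45) was at 11.01 against 16.6 FPKM. Macrophage and monocyte markers summed to 276 against 608 FPKM, with 5 of 11 called lower, and dendritic cell markers to 97.5 against 378 FPKM, with 2 of 9 called lower. The chemokine gene Ccl17, at 47.6 against 296 FPKM, made up most of that gap, and without it the sums were 49.9 against 81.9 FPKM. Itgax, at 7.42 against 24.7 FPKM, and Ly6d, at 16.1 against 27.7, made up most of the gap that remained. Of the 9 measured genes of this list 8 lay below 0. The 1 above was Clec9a, a receptor of cross-presenting dendritic cells, at 11.7 against 6.93 FPKM, a ratio of 1.68 (1.51 to 1.87). Xcr1, a receptor of the same cells, went the other way, at 0.932 against 1.54 FPKM, a ratio of 0.603 (0.468 to 0.773). Zbtb46 was at 4.82 against 5.15, a ratio of 0.934 (0.797 to 1.099). Clec9a, Xcr1 and Zbtb46 were also chosen after their values were seen. B cell markers summed to 53.9 against 63.9 FPKM, with a median of -0.09 and 1 of 9 called lower (Fcer2a, 2.69 against 9.41 FPKM). NK cell markers summed to 50.7 against 51.3 FPKM with a median of 0.22 and none called. No marker of these lists was at 0 in either library. The part of each cell type in the T cell values was not tested. Of the 4 gamma delta T cell markers in the tables only Blk, also a B cell gene, and Sox13 were measured, with a median of 0.05, and Il17a was at 0 in both libraries. Sox13 stood at 26.0 FPKM in the knockout and 20.7 in the wild type, above every CD3 subunit. The cells behind its RNA were not tested, so this median does not describe gamma delta T cells. Lung tissue markers had a median of 0.13 with none called, and reference genes of -0.04 with 1 of 10 called lower (B2m).

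In the IL-22 pair pan-leukocyte genes summed to 795 FPKM after IL-22, against 615 after PBS, and 9 of 10 lay above 0 (median 0.39), with none called. Macrophage and monocyte markers summed to 561 against 377 FPKM, with 2 of 11 called higher. The T cell genes summed to 34.8 against 33.0 FPKM. Medians were -0.08 for T cell receptor signalling and identity, 0.13 for lineage transcription factors, 0.15 for the further costimulatory and inhibitory receptors, 0.10 for CD28 family ligands, 0.09 for homing receptors and -0.04 for growth cytokines, with none called in these lists. They were 0.10 for B cell, 0.03 for NK cell and 0.02 for dendritic cell markers, also with none called. Regulatory T cell genes had a median of -0.03 with 1 of 10 called higher. The 2 measured genes of type 2 helper cells and ILC2 had a median of -0.01, gamma delta T cell markers of -0.02, lung tissue markers of -0.15 and reference genes of -0.04, with none called. Cd8b1 was at 5.48 FPKM after IL-22, against 7.08 after PBS, and Cd86 at 3.07 against 2.16.

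The genes whose pattern over the 4 libraries was most like that of the CD3 subunits were Hn1l, Pou2af1 (a coactivator of B cells), Rab32, Calca and Zcchc2. Their root mean square distance from the CD3 mean was 0.02 to 0.03 on the centred log2(FPKM + 1) scale. With 4 libraries a small distance is easily met: 193 of 11646 genes lay within 0.1 of the CD3 pattern, and the median gene was at 0.29. Among the 10 genes Foxp3 was at 0.06, Cd4 and Cd28 at 0.10, Icos at 0.20, Cd8a at 0.29, Gata3 at 0.34 and Ctla4 at 0.59. The added 1 FPKM shrinks the differences of low genes on this scale, so the small distance of Foxp3 does not show that it moved as the CD3 subunits did: its ratio of knockout to wild type was 0.315, against 0.644 for the CD3 mean.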

How the data were processed

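RNA from whole lung was measured in 4 libraries, 1 per group. The authors deposited FPKM per gene in 2 tables of 23746 rows, 1 per pair of libraries. Cufflinks 2.2.1, TopHat2, CASAVA 1.8.2 and the build mm10 are listed in the submitters' processing notes. No source used here gives their settings or a scaling of libraries.

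Tables were joined on symbol and accession, 25 symbols stored as dates were replaced by the RefSeq symbol of their accession, and rows of a symbol were added. The value of 1 read times transcript length less 200 bases has a common value in low rows, which gave the depth. Of low values, at most 10 reads, 62.0 to 63.2% were whole reads to within 0.1, against 20% by chance. Reads of the 10 genes are estimates from this.

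With 1 library per group there was no test. Named genes were drawn from all 10, up to 4 of each list with the largest differences per pair, 8 fixed genes and the 5 most like the CD3 subunits. Some genes of the lists are not reported here by name. The members and lists were chosen with earlier results of these data known. Steps were tested on simulated data. Software was matplotlib 3.10.9, scipy 1.17.1, pandas 2.3.3, numpy 2.4.6 and Python 3.11.15.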

Additional observations from a re-analysis of the deposited data

How the results depend on the processing

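The count of 1 called gene among the 10 in the HDM pair, Ctla4, depended on how low values were handled. It was 2 (Ctla4 and Icos) with a pseudocount of 0.1, where the differences were -2.51 and -1.13, and 4 (with Cd3e and Cd4 too) at a size rule of 1.5-fold. It was 0 with a mean FPKM of at least 5, which leaves Cd3e and Cd3g alone. Under the same settings the calls over all genes in the HDM pair were 488 lower and 131 higher, 852 and 429, and 193 and 58, against 322 and 73, and in the IL-22 pair a pseudocount of 0.1 gave 132 higher against 79 and the 1.5-fold rule 61 lower and 259 higher. The other settings tried (no filter, only the highest row of a symbol, libraries scaled to the same total or by their median ratio) did not alter the count or the median of the 10 genes beyond counting error, in either pair. The same total put Cd4 and Cd8a at 0.03 and 0.04 in the IL-22 pair, against -0.04 and -0.02, and it put the median of all genes there at 0.13. Using the shortest listed transcript left all read estimates within their counting error. No paired analysis was possible because each group has 1 library. Leaving out a library was not possible for the same reason. Depth limits Ctla4 with PBS (6 reads) and Foxp3 (16 to 68 reads) most.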

Other observations

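The regulatory cytokine Il10 and the shared cytokine subunit Ebi3 had the largest differences in the regulatory T cell list of the IL-22 pair. Il10 was at 1.85 FPKM after IL-22, against 0.0452 after PBS, 59 reads against 1, a ratio of 40.8 (7.05 to 1640), and its mean was under the filter. In the HDM pair it had 1 read in the knockout and 6 in the wild type, a ratio of 0.152 (0.00331 to 1.26). Ebi3 was at 11.4 FPKM after IL-22, against 3.56 after PBS, a ratio of 3.19 (2.44 to 4.21), and was the only called gene of that list. Many cells besides T cells express both. Ccr8, a chemokine receptor of type 2 and regulatory T cells, had 15 reads after IL-22, against 3 after PBS, a ratio of 3.46 (0.979 to 18.7). Il10 and Ccr8 were chosen after their values were seen.

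Pdcd1lg2, the PD-1 ligand PD-L2, stood at 0.193 FPKM in the knockout, against 1.604 in the wild type after HDM (8 against 58 reads), a ratio of 0.121 (0.0520 to 0.265). It too was under the filter and was chosen after its values were seen.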
